A study of Mus musculus with 6 samples.

Results

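The tumour necrosis factor (TNF) superfamily was described in 1676 cells, a mouse pre-B cell line, at raised and at sequestered levels of the microRNA miR-26. Its members were taken as every probe of the array whose gene symbol reads Tnfsf or Tnfrsf followed by a number, which gave 40 of 55681 probes, standing for 30 of 24105 named genes, of which 20 encode receptors and 10 encode ligands. The line came from the marrow of mice with the genotype SLP-65-/- LAT-/-, so that every sample lacks both of these adaptors of pre-B cell receptor signalling, and every sample was kept in an excess of IL-7. Cells were transduced with retrovirus and selected with puromycin for an empty control vector, for hsa-miR-26a-2 (called miR-26a here), or for a sponge transcript that sequesters the miR-26 family, with 2 arrays per group. Arrays with the same replicate number were taken as 1 experiment, from the methods. The labels give the number without saying what it marks, and the titles of both control arrays also quote other sample records, which leaves the pairing of the controls less sure. Both constructs were set against the same control arrays. The control of the sponge was the empty vector, and the level of miR-26 itself was not on these arrays. Replicates of one line are not separate animals, and the p-values measure only the spread between these cultures. All arrays lay on 1 slide that was scanned once. The experiments held different rows and the groups different columns of that slide, so that row and experiment, and column and group, cannot be told apart.

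TNF superfamily ligands are trimers on the cell surface or in solution, and each binds one or a few receptors with cysteine-rich repeats outside the cell. Receptors without a death domain recruit TRAF adaptors, and some of them stabilize the kinase NIK and thereby feed the alternative NF-kB arm, whereas death receptors recruit FADD and caspase-8. In the B lineage, the best known members are the receptors for the cytokine BAFF, namely BAFF-R (Tnfrsf13c), TACI (Tnfrsf13b) and BCMA (Tnfrsf17), of which BAFF-R carries mature B cells through survival and is low on most early precursors.

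The overexpressed and the sequestered RNA share one seed, which pairs with target transcripts. The mature mouse sequences from RefSeq (GRCm38.p6) are shown with the seed, bases 2 to 8, in capitals.
mmu-miR-26a-5p: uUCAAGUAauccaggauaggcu
mmu-miR-26b-5p: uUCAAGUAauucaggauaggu
The miR-26a sequence is encoded by both Mir26a-1 and Mir26a-2 and miR-26b by Mir26b, and all have the same seed. The words that pair with this seed, TACTTGA and ACTTGAA, occurred in 0 of the 40 member probes and in 0.955% of all 55681 probes, and the probes span only 60 bases of each transcript.

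The results below turn on the contrast between the receptors BAFF-R and TACI, whose tested probes nearest to the 5′ end of the transcript are shown in the sense of the mRNA.
Tnfrsf13c probe: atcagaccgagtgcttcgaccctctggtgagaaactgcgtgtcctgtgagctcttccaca
Tnfrsf13b probe: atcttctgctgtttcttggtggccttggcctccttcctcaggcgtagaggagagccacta
The Tnfrsf13c probe begins at base 91 of its transcript and lies on the minus strand at chr15:82054616-82054675 of mm9, the build named in the array's own annotation. The Tnfrsf13b probe begins at base 408 and lies on the plus strand at chr11:60960405-60960464. Where a gene has several probes, they are told apart below by the base at which they begin, counted in the transcript that the array's annotation gives for each probe.

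All levels are log2 values of the quantile-normalized signal, and a level is compared between arrays for 1 probe only, since probes differ in brightness. Over the 6 arrays, 28823 to 29800 of 59305 spots were well above the local background by the scanner's own test, replicates of a group correlated at 0.996 to 0.997, and no spot was saturated. The identity of the line was checked with marker genes. All 10 pre-B cell markers were above background on all arrays at 1 probe or more, including Vpreb1 and Igll1. With miR-26a, 2 of these, Rag1 and Rag2, fell by 2.47 ± 0.20 and 3.36 ± 0.10 on the log2 scale (SE). Their adjusted p was 0.00555 and 0.00105. A second probe of each, at base 3967 of Rag1 and base 3152 of Rag2, was above background on no miR-26a array. Both of these probes were above it on all control and sponge arrays and were not tested. All 4 plasma cell markers were above background on all arrays and tested. Of these, Irf4 fell by 1.19 ± 0.09 with miR-26a (adjusted p = 0.00481). Xbp1, Prdm1 and Sdc1 differed by 0.30, -0.05 and -0.11 and were not called. Of the 4 mature B cell markers on the array, 2 were tested. Cr2 rose with miR-26a by 1.18 ± 0.07 and 0.91 ± 0.09 at its 2 tested probes, while Cd22 differed by -0.19 and was not called. Of the markers of other cells, 3 of 10 myeloid genes, 4 of 7 T cell genes and 0 of 6 stromal genes on the array were bright enough to be tested. The summed signal of the myeloid list (log2) ran from 11.95 to 12.31 on the control arrays, from 12.02 to 12.25 with miR-26a and from 11.70 to 12.23 with the sponge. This sum mainly follows its brightest probe, Itgam at base 4431, which read 11.51 and 12.00 on the control arrays. With the sponge, Csf1r differed from control by -0.69 ± 0.17 at base 3806 and by 0.09 ± 0.20 at base 1841 (adjusted p = 0.223 and 0.833). Of the defining myeloid genes, Cd14, Ly6g and S100a8 were above background on no array and Lyz2 and S100a9 on 1, while Itgam, Csf1r and Elane were measured. For the T cell list the summed signal ran from 11.33 to 11.42, from 11.08 to 11.19 and from 11.17 to 11.34, with Cd3g and Cd8a above background on no array and Cd3e, Cd4, Cd5 and Lck tested. With miR-26a, Cd5 fell by 1.98 ± 0.10 (adjusted p = 0.00268) and Itgam fell by 0.82 ± 0.08 at base 3410 (adjusted p = 0.0072), whereas it differed by 0.06 ± 0.10 at base 4431. The part of these lists in the results below was not tested.

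Of the 40 member probes, 22 were well above background on both control arrays, 22 on both miR-26a arrays and 23 on both sponge arrays, and the same 22 were above background on all 6 arrays. These 22 stand for 18 genes, 14 receptors and 4 ligands. Another 12 probes were above background on no array and 6 on some arrays only. By gene, 8 genes (4 receptors and 4 ligands) had no probe above background on any array. Over the whole array, 24960 of 55681 probes were above background on all 6 arrays. Thus signal was measured for receptors that include Tnfrsf13b, Tnfrsf13c, Tnfrsf9 (4-1BB), Tnfrsf18 (GITR) and Tnfrsf4 (OX40). Among the ligands it was measured for Tnfsf9, Tnfsf10, Tnfsf12 and Tnfsf15. For Tnfrsf13b, Tnfrsf9 and Tnfsf12, not every probe of the gene was above background on all arrays.

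Of the BAFF system, 2 of the 3 receptors were measured well above background. Tnfrsf17, the BCMA receptor of plasma cells, lay between 1.27 and 2.56 and was above background on no array. The ligand Tnfsf13b, BAFF itself, lay between 1.23 and 3.61 and was above background on 1 array, while its relative Tnfsf13 (APRIL) was not analysed here. The death receptor Tnfrsf1a, the main receptor for TNF, was not above background at its probe at base 2029 on any array and was above background on 1 of 6 arrays at its probe at base 1575. Tnfrsf25, a death receptor for TL1A, Tnfrsf8 (CD30) and the decoy receptor Tnfrsf11b (osteoprotegerin) were above background on no array, nor were the ligands Tnfsf4, Tnfsf8, Tnfsf14 and Tnfsf18. Tnfsf11 (RANKL), whose receptor Tnfrsf11a (RANK) was measured at 6.39 to 6.75, was above background on 1 array.

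Some genes gave opposite readings at different probes. Tnfrsf9 was at 10.75 to 10.98 at its probe at base 1504 and above background on no array at base 1023. Likewise, Tnfrsf13b was at 13.63 to 14.18 at base 2451 and at 9.79 to 10.10 at base 408, whereas its probe at base 175 lay between 3.26 and 4.43 and was above background on 3 arrays, 1 of control and both of the sponge. There, the mean of the sponge arrays was at least 1.55-fold that of the miR-26a arrays, a bound taken against the dimmest signal that is still above background. These levels lie close to background, and the difference was not tested. Tnfsf12 was measured at base 1034 and above background on no array at base 848. These readings belong to the probes, and the files do not say which isoforms each probe can see.

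**Figure D1:**
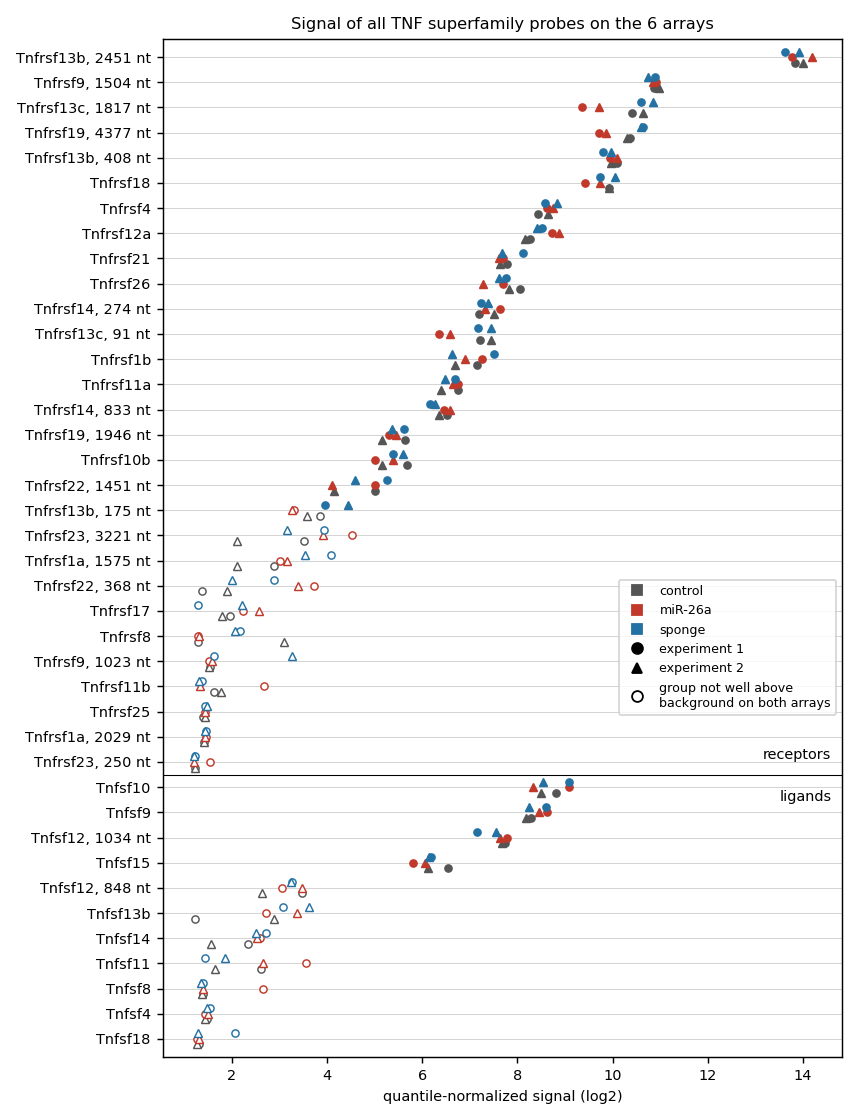
Quantile-normalized log2 signal (x axis) of each of the 40 TNF superfamily probes (y axis, with the first base of the probe in the transcript where a gene has several), with 1 point per array, coloured by group and shaped by experiment. Filled points mark groups whose arrays were both well above background. Receptors lie above the line and ligands below it, and the red miR-26a points of Tnfrsf13c and Tnfrsf19 (base 4377) stand to the left of both other groups.

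To test differences between groups, dim probes were set aside, keeping those above background on 1 array or more whose processed signal exceeded 50 on 4 or more of the 6 arrays. This left 20168 probes of the array and 19 member probes, standing for 16 genes (12 receptors and 4 ligands). A difference was called when limma's moderated test, with the experiment as a block, gave a Benjamini-Hochberg adjusted p under 0.05 over all 20168 probes. With miR-26a, 5 of the 19 member probes were called against control, 4 lower and 1 higher, against a background of 9.64% of all probes tested, of which 5.14% were lower and 4.5% higher. The called probes were both probes of Tnfrsf13c, the brighter probe of Tnfrsf19, Tnfrsf26 and, on the higher side, Tnfrsf12a. The median change of the 19 probes was -0.001 and that of all probes was 0.01. Between miR-26a and the sponge, 3 member probes were called, those of Tnfrsf13c and the brighter one of Tnfrsf19, all of them lower with miR-26a, where 16.8% of all probes were called, 8.49% lower and 8.28% higher. With the sponge, 0 of 19 member probes were called against control by limma, and 2 of 20168 probes were called in all (0.00992%). At an unadjusted p under 0.05, 8 member probes differed with miR-26a, 5 with the sponge and 8 between miR-26a and the sponge, where 27.3%, 16.1% and 34.6% of all probes did. The arrays of the compared groups did not overlap for 8, 6 and 8 of the 19 member probes, where this was so for 49.3%, 37.7% and 50.9% of all probes. The unpaired t-test with the same adjustment called 0 member probes and 0 of all 20168 probes in each of the 3 comparisons.

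Tnfrsf13c had the largest change among the tested members with miR-26a, and both of its probes fell. At base 1817 the control arrays read 10.40 and 10.63, the miR-26a arrays 9.36 and 9.72, and the sponge arrays 10.60 and 10.85. Both miR-26a arrays lay below all other arrays, and control and sponge arrays overlapped. The signal fell by 0.98 ± 0.07 on the log2 scale (SE), that is to 0.508 of control, with adjusted p = 0.0047. Within experiment 1 the difference from control was -1.05 and within experiment 2 it was -0.91. At base 91 the control arrays read 7.22 and 7.44, the miR-26a arrays 6.36 and 6.58, and the sponge arrays 7.17 and 7.45. Here too, both miR-26a arrays were below the rest. The signal fell by 0.86 ± 0.07, to 0.551 of control, with adjusted p = 0.00515, and the within-experiment differences were both -0.86. Against the sponge, the differences at the 2 probes were -1.19 ± 0.07 (adjusted p = 0.00216) and -0.84 ± 0.07 (adjusted p = 0.0033). With the sponge alone, base 1817 differed from control by 0.21 (95% interval 0.03 to 0.39) at adjusted p = 0.277, and base 91 by -0.02 (-0.18 to 0.15) at adjusted p = 0.908.

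Tnfrsf13b, the other BAFF receptor of these cells, did not move with it. At base 2451 the control arrays read 13.84 and 14.01, the miR-26a arrays 13.78 and 14.18 and the sponge arrays 13.63 and 13.91, and all 3 groups overlapped. The miR-26a difference was 0.06 (95% interval -0.15 to 0.26) and at base 408 it was -0.02 (-0.26 to 0.22), with adjusted p = 0.73 and 0.942. These intervals hold no fall of the size seen for Tnfrsf13c. With the sponge, the differences were -0.16 (-0.36 to 0.05) and -0.16 (-0.40 to 0.08). Against the sponge, base 2451 was higher with miR-26a by 0.21 (0.01 to 0.42), with an unadjusted p of 0.0441 and an adjusted p of 0.134, and base 408 differed by 0.14 (-0.10 to 0.38).

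Tnfrsf19 (TROY), an orphan receptor that recruits TRAFs and is best known from skin, brain and intestinal stem cells, was the second receptor that fell. At base 4377 the control arrays read 10.36 and 10.30, the miR-26a arrays 9.72 and 9.86, and the sponge arrays 10.64 and 10.61, so that no group overlapped another. The signal fell by 0.54 ± 0.08 with miR-26a (adjusted p = 0.018). With the sponge it was 0.29 ± 0.08 above control, which is 22.6%, and above it in each experiment, at an unadjusted p of 0.0111 and an adjusted p of 0.229. The difference between miR-26a and the sponge was -0.83 ± 0.08 (adjusted p = 0.00445). Its second probe, at base 1946, was above background on all arrays but too dim to be tested, with 5.64 and 5.14 on the control arrays, 5.31 and 5.44 with miR-26a and 5.61 and 5.36 with the sponge, and its groups overlapped.

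Tnfrsf12a (Fn14), the receptor for TWEAK, was the called member that rose. The control arrays read 8.25 and 8.16, the miR-26a arrays 8.73 and 8.88, and the sponge arrays 8.51 and 8.40, and the groups did not overlap. The signal rose by 0.60 ± 0.09 with miR-26a (adjusted p = 0.0196), to 1.51 times control. The sponge arrays were also above control, by 0.25 ± 0.09, at an unadjusted p of 0.0356 and an adjusted p of 0.286, so that this gene did not go opposite ways with the 2 constructs. Its ligand TWEAK, Tnfsf12, read 7.74 and 7.68 on the control arrays, 7.78 and 7.64 with miR-26a, and 7.15 and 7.54 with the sponge. Both sponge arrays were below all others, and the sponge difference was -0.37 ± 0.14, with an unadjusted p of 0.0434 and an adjusted p of 0.3, whereas the miR-26a difference was -0.001 (95% interval -0.35 to 0.35).

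Tnfrsf26, a mouse decoy-type receptor that is found beside Tnfrsf22 and Tnfrsf23 on chromosome 7, fell by 0.46 ± 0.09 with miR-26a (adjusted p = 0.0349). Its control arrays read 8.06 and 7.83, its miR-26a arrays 7.69 and 7.28, and its sponge arrays 7.76 and 7.61. The sponge arrays were below both control arrays as well, by 0.26 ± 0.09 (adjusted p = 0.27), and they overlapped with the miR-26a arrays. The neighbours Tnfrsf22 and Tnfrsf23 could not be tested. Tnfrsf22 was above background on all arrays at base 1451, at 4.10 to 5.26, and its groups overlapped, and Tnfrsf23 was above background on 1 array at base 3221 and on none at base 250. The largest set of member genes, 9 of 30, lay on chromosome 4.

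**Figure D2:**
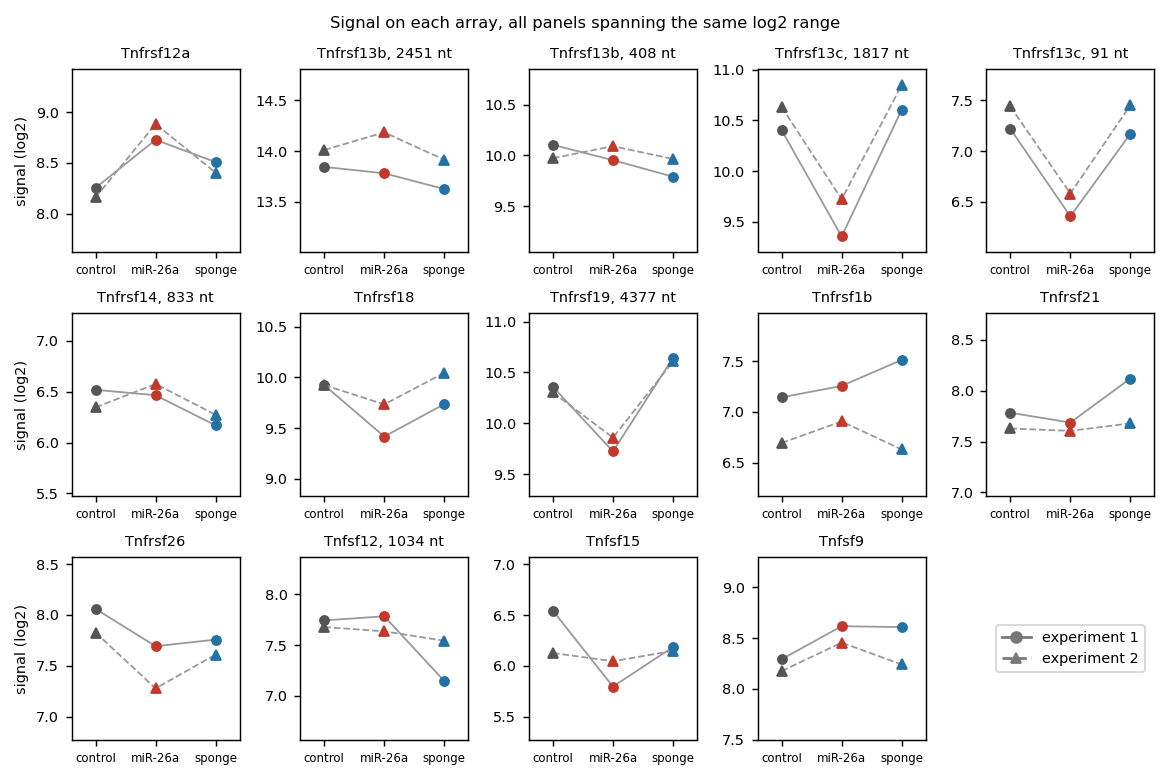
Log2 signal (y axis, the same span in each panel) on the control, miR-26a and sponge arrays (x axis) for the 14 member probes named by their p-values or by their role, with lines joining the arrays of 1 experiment. In both experiments the middle, miR-26a point is the lowest for both Tnfrsf13c probes, Tnfrsf19, Tnfrsf18, Tnfrsf26, Tnfrsf21 and Tnfsf15, and the highest for Tnfrsf12a and Tnfsf9.

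Below the threshold of the adjusted test, 3 more members differed between miR-26a and control at an unadjusted p under 0.05 with the same sign in both experiments. Tnfrsf18 (GITR), a costimulatory receptor of T cells, read 9.92 on both control arrays, 9.42 and 9.73 with miR-26a and 9.74 and 10.04 with the sponge, a difference of -0.35 ± 0.10 at adjusted p = 0.0925. The gene Tnfrsf4, which lies next to it on chromosome 4, differed by 0.15 ± 0.07 (adjusted p = 0.249). Tnfsf9 (4-1BB ligand) read 8.29 and 8.18 on the control arrays, 8.62 and 8.46 with miR-26a and 8.61 and 8.24 with the sponge, with a difference of 0.30 ± 0.09 at adjusted p = 0.0902. Tnfsf15 (TL1A) read 6.54 and 6.13 on the control arrays, 5.80 and 6.05 with miR-26a and 6.19 and 6.15 with the sponge. Its difference of -0.41 ± 0.16 (adjusted p = 0.162) was -0.75 in experiment 1 and -0.08 in experiment 2, and thus came mostly from 1 experiment. At a change of at least 0.26 on the log2 scale in either direction and an unadjusted p under 0.05, miR-26a gave 6 lower and 2 higher member probes, where 9.40% and 9.56% of all probes passed. The study's own limit for miR-26a was a reduction by 20%, which is stricter on the lower side, and at it the same 6 member probes were lower, where 7.05% of all probes were. For the sponge, at the same change and a p under 0.1, the p limit that the study set for genes that rose, 1 probe was lower (Tnfsf12) and 1 higher (Tnfrsf19), where 5.91% and 4.31% of all probes passed. This count was 0 without sponge replicate 1, 8 without sponge replicate 2 and 6 without control replicate 2, and the miR-26a count was 5 without control replicate 1.

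Tnfrsf14 (HVEM), the receptor for LIGHT, was at 6.52 and 6.35 on the control arrays, 6.47 and 6.58 with miR-26a and 6.17 and 6.27 with the sponge at base 833. Its difference between miR-26a and the sponge was 0.30 ± 0.09 with an adjusted p of 0.0863, and its probe at base 274 gave 0.16 ± 0.15. The TNF receptor Tnfrsf1b read 7.14 and 6.69 on the control arrays, 7.26 and 6.91 with miR-26a and 7.51 and 6.63 with the sponge. Its groups overlapped, and its miR-26a difference was 0.16 (95% interval -0.18 to 0.50). The death receptor Tnfrsf21 (DR6) read 7.78 and 7.63, 7.69 and 7.61, and 8.12 and 7.68, in the same order, and its miR-26a difference was -0.06 (-0.32 to 0.20). Tnfrsf10b, the mouse TRAIL receptor, was too dim to be tested. It read 5.69 and 5.16, 5.0 and 5.38, and 5.39 and 5.60, with overlapping groups. Its ligand Tnfsf10 (TRAIL) differed by 0.05 (-0.23 to 0.34) with miR-26a. The remaining receptors tested, Tnfrsf11a, Tnfrsf4 and Tnfrsf9, had miR-26a differences between -0.04 and 0.15 and sponge differences between -0.10 and 0.17, and their groups overlapped in both comparisons.

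**Figure D3:**
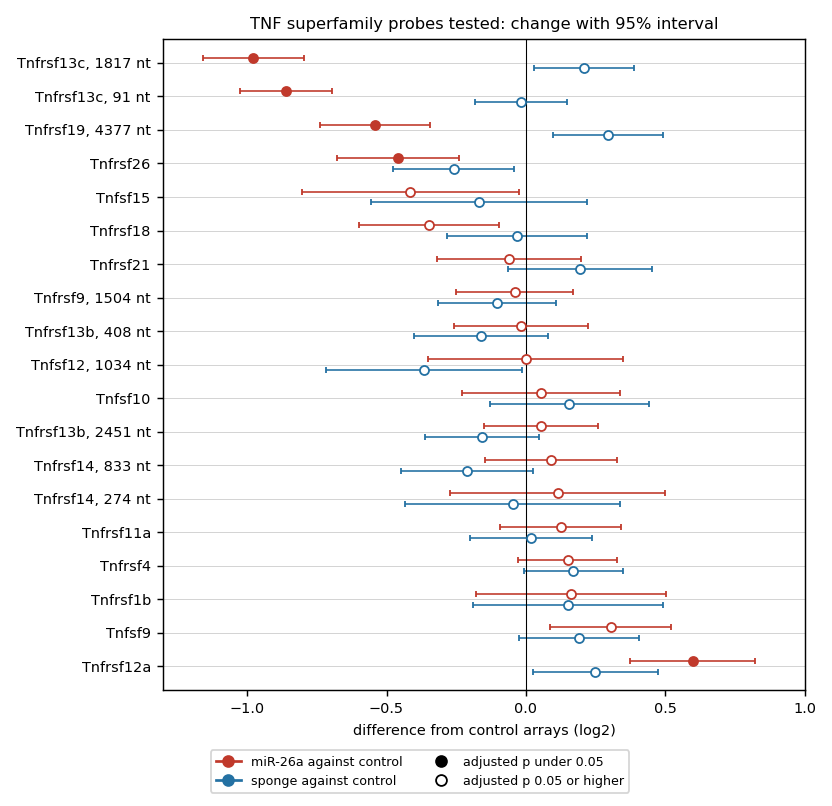
Fitted log2 difference from control (x axis) with its 95% interval for the 19 member probes tested (y axis), for miR-26a in red and the sponge in blue, with filled points where the adjusted p was under 0.05. The 5 filled points all belong to miR-26a, and both constructs were set against the same 2 control arrays.

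In 11 of 19 member probes, the 95% interval of the miR-26a difference held 0, and for the sponge this was so for 14. How far the calls rest on single arrays was examined by leaving each array out. Without control replicate 1, 0 member probes were called for miR-26a, and without control replicate 2 only the Tnfrsf13c probe at base 1817 was called, with adjusted p of 0.0603 and 0.0498 for that probe. In these fits, 0.516% and 0.659% of all probes were called. The Tnfrsf26 call was lost without any 1 array other than miR-26a replicate 1, the Tnfrsf19 call against the sponge was lost without either sponge array, and without miR-26a replicate 2 Tnfsf15 was called against control and Tnfrsf14 against the sponge. Without miR-26a replicate 1, Tnfrsf12a was called against the sponge. The change of the Tnfrsf13c probe at base 1817 ran from -0.91 to -1.04 over these fits. Without the experiment as a block, 0 member probes were called for miR-26a and 3 against the sponge, again those of Tnfrsf13c and Tnfrsf19.

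By their levels over the 6 arrays, the probes of other genes most like the Tnfrsf13c probe at base 1817 were Limd2, Rnf6, Grip1, Foxn3 and Ccdc28a, with Pearson's r from 0.996 to 0.999. All 5 were lower with miR-26a, by 0.34 for Limd2 to 0.98 for Grip1, and 0.08 to 0.22 above control with the sponge. Their directions follow from their having been picked by this likeness. Among the members, r with this probe was 0.98 for the other Tnfrsf13c probe, 0.95 for Tnfrsf19 and -0.77 for Tnfrsf12a. It was 0.39 for Tnfrsf26, which was called, and 0.87 for Tnfrsf18, which was not. These values are across 6 arrays of 3 groups that share 2 experiments, and they describe likeness only.

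For 3 genes picked because they were called, Tnfrsf13c and Tnfrsf19 as lower and Tnfrsf12a as higher, the 250 bases before the RefSeq start are shown, all on the minus strand of GRCm38.p6, at chr15:82224381-82224630, chr14:61046856-61047105 and chr17:23677450-23677699. Capitals mark matches to words that were searched on both strands, the E-box CAGGTG and the FOXO word TGTTTAC, which do not overlap each other.
Tnfrsf13c promoter: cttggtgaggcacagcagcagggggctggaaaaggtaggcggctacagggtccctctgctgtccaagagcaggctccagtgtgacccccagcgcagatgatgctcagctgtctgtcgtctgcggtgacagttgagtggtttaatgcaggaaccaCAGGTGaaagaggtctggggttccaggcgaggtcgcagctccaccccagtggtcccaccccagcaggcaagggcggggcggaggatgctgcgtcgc
Tnfrsf19 promoter: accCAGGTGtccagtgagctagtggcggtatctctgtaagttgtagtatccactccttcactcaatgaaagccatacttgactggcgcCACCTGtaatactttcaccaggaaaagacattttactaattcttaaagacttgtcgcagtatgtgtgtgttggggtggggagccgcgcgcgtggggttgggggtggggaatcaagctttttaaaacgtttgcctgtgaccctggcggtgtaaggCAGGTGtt
Tnfrsf12a promoter: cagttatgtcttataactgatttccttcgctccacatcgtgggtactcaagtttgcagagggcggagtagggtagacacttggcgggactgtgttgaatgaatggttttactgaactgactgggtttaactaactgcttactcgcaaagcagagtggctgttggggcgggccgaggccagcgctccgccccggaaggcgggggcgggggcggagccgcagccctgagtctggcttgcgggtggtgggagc
The Tnfrsf13c window held 1 E-box word and the Tnfrsf19 window 3, and neither word was found in the Tnfrsf12a window. Tnfrsf19 had 2 promoter entries, of which only 1 is shown, and the counts for its window are for that entry. Of 28 promoter entries of member genes, which cover 23 of the 30 genes, 8 held the E-box word, against 17.2% of all 32851 promoters. Among these were Tnfrsf11a, Tnfrsf1b, Tnfrsf18 and Tnfsf10, which were tested and not called, and Tnfrsf26 had no entry. The FOXO word was in 0 of the 28 and in 3.17% of all. Such matches describe the letters of these windows, not sites in use.

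Of 15 superfamily genes with other symbols, such as Cd40, Fas and Ltb, 2 were bright enough to be tested. Fas, the death receptor, differed by 0.05 ± 0.10 with miR-26a and 0.18 ± 0.10 with the sponge, and Relt, an orphan receptor, by -0.07 ± 0.08 and -0.12 ± 0.08, and none of these was called. The genes Cd40lg, Cd70, Cd27, Fasl, Edar, Eda2r and Ltbr were above background on no array, Tnf itself on 1 array and Cd40 on 2. Lymphotoxin beta (Ltb) was above background on all arrays at 4.80 to 5.71, too dim to be tested. Lta was above background on both control arrays, at 3.62 and 3.99, and on no other. Against the dimmest signal still above background, the mean of the control arrays was 1.18-fold for the miR-26a arrays and 1.19-fold for the sponge arrays. That dimmest signal was 3.68 on miR-26a replicate 2 and 3.69 on sponge replicate 1. The control array at 3.62 lay below both, so these ratios are not lower bounds for single arrays. These levels lie close to background, and the difference was not tested.

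Inside the cell, all 26 adaptors and regulators of these receptors were above background on all arrays, and 25 were tested. With miR-26a, 2 of the 25 fell and 2 rose, with a median of 0.03 over their 39 probes, and with the sponge 0 changed by limma's adjusted p. A gene was counted when any of its probes was called. By probe, 7 of the 45 tested for these genes and the alternative NF-kB arm together were called with miR-26a, where 9.64% of all probes were. Traf3, the adaptor that holds NIK in check, rose by 0.57 ± 0.08 (adjusted p = 0.0153). Its control arrays read 11.28 and 11.20, its miR-26a arrays 11.82 and 11.79, and its sponge arrays 11.40 and 11.17, so both miR-26a arrays were above all others. Tnip2 (ABIN-2), which binds the inhibitor A20, rose at both probes, by 0.57 ± 0.07 and 0.48 ± 0.07. With the sponge, it was also above control in both experiments, by 0.29 ± 0.07 and 0.16 ± 0.07 at these probes (adjusted p = 0.222 and 0.313). The deubiquitinase Cyld fell by 0.38 ± 0.07 at base 8170 (adjusted p = 0.0355) and differed by -0.29 ± 0.08 at base 374 (adjusted p = 0.0749). Tnip1 (ABIN-1) fell by 0.34 ± 0.07 at base 2716 (adjusted p = 0.0379) and differed by -0.29 ± 0.07 at base 2776 (adjusted p = 0.0642). Against the sponge, 6 of the 25 genes were called, and by probe 9 of the same 45, where 16.8% of all probes were. The 6 genes were the same 4 and in addition Fadd and Traf5. Fadd and Traf5 were higher with miR-26a than with the sponge by 0.34 ± 0.07 and 0.39 ± 0.09 (adjusted p = 0.0364 and 0.0344). From control they differed by 0.09 ± 0.07 and 0.14 ± 0.09.

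Of the 8 genes of the alternative NF-kB arm, which BAFF-R feeds, all were tested. Counted by gene in the same way, 2 fell and 1 rose with miR-26a, the latter being Traf3, which is in both lists. Of all probes tested, 5.14% were lower and 4.5% higher, which are shares of probes and not of genes. Nfkb2, which encodes the p100 precursor of p52, fell by 0.34 ± 0.07 (adjusted p = 0.0458), from 9.82 and 9.98 on the control arrays to 9.47 and 9.64, while its sponge arrays read 9.59 and 9.90. Relb, the partner of p52, fell by 0.42 ± 0.08 at base 1942 (adjusted p = 0.0378). The Nfkb2 call was lost after scaling to the 75th percentile and the Relb call after averaging the probes of a gene. The other Relb probes differed by -0.39 ± 0.10 at base 1993 and by -0.30 ± 0.16 at base 785 (adjusted p = 0.0679 and 0.308). The kinases Map3k14 (NIK) and Chuk (IKK alpha) differed by 0.10 and 0.12 and were not called. The median over the 12 probes of the arm was -0.07, and with the sponge it was 0.01 with 0 genes called. Between miR-26a and the sponge, where 16.8% of all probes were called, 2 genes of the arm were called. Relb was lower with miR-26a by 0.49 ± 0.08 at base 1942 and 0.44 ± 0.10 at base 1993 (adjusted p = 0.0182 and 0.0362). At base 785 it differed by -0.02 ± 0.16. Traf3 was higher with miR-26a by 0.52 ± 0.08 (adjusted p = 0.0142). Without control replicate 1 or control replicate 2, 0 genes of either list were called for miR-26a, and without either miR-26a or either sponge array the adaptors called were Traf3 and Tnip2. Of the arm, Traf3 alone was called without miR-26a replicate 2 or either sponge array. Against the sponge, 0 genes of either list were called without either sponge array, and 2 or 3 adaptors without any other array.

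**Figure D4:**
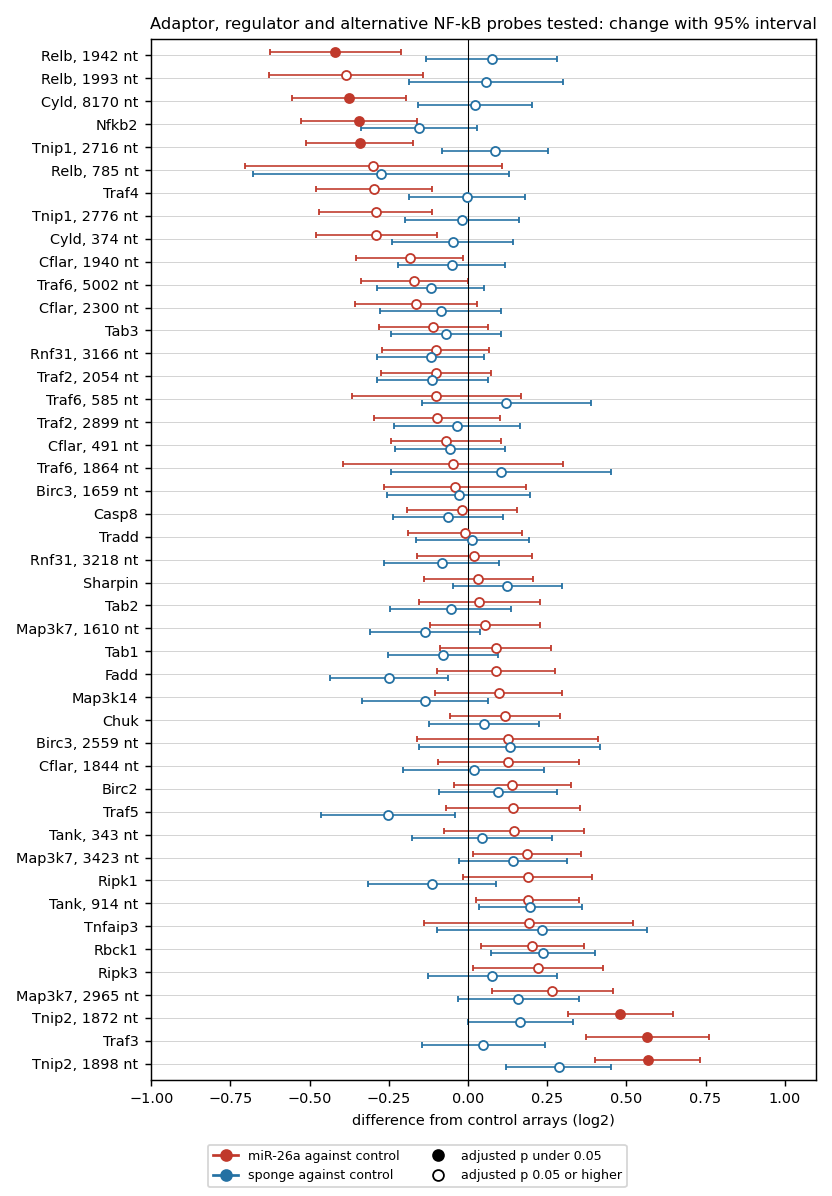
Fitted log2 difference from control (x axis) with its 95% interval for the 45 tested probes of the receptor adaptors, regulators and the alternative NF-kB arm (y axis, with the first base of the probe where a gene has several), for miR-26a in red and the sponge in blue. Filled points had an adjusted p under 0.05 and are the 7 probes of Relb, Cyld, Nfkb2, Tnip1, Traf3 and Tnip2, all for miR-26a.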

How the data were processed

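RNA of 6 samples was hybridized to Agilent G3 Mouse 8 x 60K arrays, 1 colour per array. The deposited scanner files hold spot intensities that the authors extracted with Agilent Feature Extraction (10.7.1.1 in the submitters' processing notes and 10.7.3.1 in the file headers), background-subtracted by that software. The deposited table of processed intensities is on a linear scale and was quantile-normalized by the authors, and it was used as an alternative. Here, the processed signal of all spots other than controls was quantile-normalized and put on the log2 scale, and the spots of a probe were averaged without those with an outlier mark. Differences were tested with limma 3.58.1 in R 4.3.3 over all 6 arrays and adjusted after Benjamini and Hochberg over 20168 probes. The experiment was a block, since the methods normalized each experiment to its own control. Same-numbered arrays deviated together, with correlations of 0.379 to 0.588. Alternatives changed the block, scaling, background correction, filter, test, probe averaging and arrays used. The code was tested on simulated data.

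Named probes had an unadjusted p under 0.05 and the same direction in both experiments in some comparison, or were probes of listed receptors and ligands known for B cells and death signalling, and called genes of the pathway lists were named. For likeness, the 5 probes of other genes that correlated best with the member probe of smallest adjusted p were taken. The members, gene lists and promoter words were chosen with earlier results of these data known. The number of arrays limits the precision. All 30 member genes matched RefSeq symbols.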

Additional observations from a re-analysis of the deposited data

How the results depend on the processing

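Each group had 2 arrays, which limits every call, and 21 of the 40 member probes were too dim to be tested. With the authors' processed values, the stricter filter, averaging by gene, normexp correction and scaling by each array's 75th percentile, the same 4 genes were called for miR-26a against control. Removing the replicate block left 0 member probes for miR-26a against control and 3 against the sponge, with 311 and 997 of all probes, 1 and 1 adaptor genes and 0 and 0 genes of the alternative NF-kB arm. Without a filter on dim probes, 0 members, 0 of all probes, 0 adaptors and 0 genes of the arm were called in any comparison, and 6 members passed the limits on change and unadjusted p for the sponge, among them probes at background. With the unpaired t-test, 0 were called throughout, and 4 and 1 members passed those limits for miR-26a and the sponge. The 2 probes called in all for the sponge became 4 after scaling to the 75th percentile, 36 after normexp, 6 with the stricter filter and 0 after averaging by gene. Between miR-26a and the sponge, normexp gave 5 members, adding Tnfrsf12a and Tnfrsf13b, and averaging by gene gave 1 gene of the arm. For miR-26a against control, the arm had 2 genes called after scaling to the 75th percentile, without Nfkb2, and 2 after averaging by gene, without Relb. The limit of a 20% reduction, added after seeing the data, left 8 members past those limits for miR-26a. The cause of these moves was not tested. Leaving out single arrays gave 0 to 5 members called for miR-26a, 0 to 0 for the sponge and 2 to 4 between them, 104 to 1599, 0 to 35 and 410 to 2436 of all probes, 5 to 8 and 0 to 8 members past the limits on change and unadjusted p for miR-26a and the sponge, 0 to 2 adaptors and 0 to 2 genes of the arm for miR-26a, and 0 to 3 and 0 to 2 between miR-26a and the sponge. Where a group was left with 1 array, that array was assumed to vary like the others. Of 588 values of the 14 named probes under alternatives, 21 changed sign, and none of these was called. After scaling to the 75th percentile, the miR-26a difference was 0.021 for Tnfrsf13b at base 408 and 0.018 for Tnfsf12. After averaging by gene, the miR-26a difference of Tnfrsf13b was 0.019 and the sponge difference of Tnfrsf13c was 0.10. After normexp, Tnfrsf1b differed by -0.0040 between miR-26a and the sponge. The other sign changes came from leaving out single arrays. There, the miR-26a difference ran from -0.034 to 0.14 for Tnfrsf13b at base 2451, from -0.16 to 0.13 at base 408, from -0.052 to 0.23 for Tnfrsf14 at base 833, from -0.17 to 0.048 for Tnfrsf21 and from -0.16 to 0.16 for Tnfsf12. The sponge difference ran from -0.048 to 0.012 for Tnfrsf13c at base 91, from -0.19 to 0.12 for Tnfrsf18, from -0.089 to 0.39 for Tnfrsf1b and from -0.43 to 0.092 for Tnfsf15. Between miR-26a and the sponge, it ran from -0.23 to 0.25 for Tnfrsf1b and from -0.0022 to 0.23 for Tnfsf9.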
